A study of Mus musculus with 6 samples.

Results

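The SLC38 family of amino acid transporters was examined in Neuro2a cells, a mouse neuroblastoma line, cultured with or without D-serine. Its 10 listed members (Slc38a1 to Slc38a7, Slc38a9, Slc38a10 and Slc38a11) were taken by symbol from a table of 24391 genes. The control group comprised 3 cultures given vehicle, which the labels do not name further, and the treated group 3 cultures given 5 mM D-serine. All 6 cultures carried the same cell line and had their medium replaced for 18 h by one that the labels write as D-MEM(-SG), with 10% serum. The labels do not say whether replicates came from separate passages of the line. The p-values therefore measure the spread between these 3 cultures per group, which may be partly technical.

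The proteins of this family carry small and glutamine-like amino acids across membranes. Those of system A (Slc38a1, Slc38a2 and Slc38a4) bring alanine, serine and glutamine into the cell together with sodium. Those of system N (Slc38a3 and Slc38a5) exchange glutamine, histidine and asparagine and also move protons. Slc38a7 and Slc38a9 sit in the lysosome, where Slc38a7 exports glutamine and asparagine and Slc38a9 reports lysosomal arginine to the kinase complex mTORC1. In neurons, glutamine taken up by system A is a source of the transmitters glutamate and GABA. Slc38a2 is known for its transcription and its protein rising when amino acids are short. The transcription rises through an element bound by ATF4 in the first intron of the gene.

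Libraries held between 32518483 and 40024265 counts. All 13 markers of sympathoadrenal neuroblastoma cells were detected at a mean of at least 1 CPM (the count scaled to library size, with the trimmed mean of M values), although Th and Dbh, the enzymes of catecholamine synthesis, stood at only 1.49 and 1.53 CPM in control. Their summed level was 1836 to 1930 CPM in control and 1948 to 2079 CPM with D-serine. Of 14 markers of astrocytes, fibroblasts, Schwann cells and blood cells, 3 had no count and 2 reached 1 CPM, and their summed level was 3.44 to 3.71 CPM in control and 4.02 to 5.25 CPM with D-serine. Of the 16 markers tested in both lists 1 had an edgeR adjusted p under 0.05, against 9.74% of all tested genes. It was Tubb3, a neuronal tubulin that rose (log2 fold change 0.25, edgeR adjusted p = 0.0148, but 0.0807 and 0.0719 without control replicate 1 or 2). At an unadjusted p under 0.05 in edgeR there were 5 of the 13 neuroblastoma markers and 0 of the 3 others tested, against 28.2% of all tested genes. The part of either list in the results was not tested.

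With D-serine, Slc38a2 fell, and it was the 1 member of 7 tested that passed the threshold. A gene passed where its p from edgeR's quasi-likelihood test, adjusted over 13366 genes, was under 0.05. Over all tested genes 9.74% passed it, 4.9% downward and 4.84% upward. The other 6 tested members did not pass, and 0 of them had an unadjusted p under 0.05 in edgeR, against 28.2% of all tested genes. In DESeq2 and limma-voom, none of the 6 had an adjusted p under 0.05, but DESeq2 gave Slc38a5 no adjusted p. At an unadjusted p under 0.05 there were 0 and 1 of the 6 in DESeq2 and limma-voom. In RNA from whole cultures, fewer cells expressing a gene and less of its RNA per cell cannot be told apart. The remaining 3 members (Slc38a3, Slc38a4 and Slc38a11) had too few counts for the test. The median log2 fold change of the 7 tested members was -0.013, and that of all tested genes was 0.0053. With a mean of at least 50 counts required, which drops Slc38a5, the 2 medians were 0.012 and 0.0035.

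Promoter letters are shown for Slc38a2, the member that fell, and for Slc38a6, a member that did not pass the test and whose estimate had the opposite sign. The RefSeq table on GRCm38.p6 gives the 250 bases before a start of transcription, 5′ to 3′ on the gene's strand. For Slc38a2 that start is the outer start of the RefSeq gene, and the window is chr15:96699729-96699978 on the minus strand. For Slc38a6 the table uses an inner start, so that the last 109 bases of its window lie inside the gene. Shown are the 141 bases before the outer start, chr12:73286598-73286738 on the plus strand. Capitals mark matches, on either strand, to 1 of the 6 motifs searched.
Slc38a2: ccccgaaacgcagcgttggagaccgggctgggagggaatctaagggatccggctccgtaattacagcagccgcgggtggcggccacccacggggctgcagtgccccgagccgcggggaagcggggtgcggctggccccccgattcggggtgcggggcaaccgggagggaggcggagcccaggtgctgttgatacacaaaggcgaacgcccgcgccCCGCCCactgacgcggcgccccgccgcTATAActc
Slc38a6: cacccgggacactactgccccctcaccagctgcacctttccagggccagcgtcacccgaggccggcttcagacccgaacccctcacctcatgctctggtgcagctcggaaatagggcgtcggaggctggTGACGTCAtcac

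The motifs were TATAA (the core of a TATA box), CCAAT (bound by the factor NF-Y), GGGCGG (a GC box), CACGTG (an E-box), TGACGTCA (a cAMP response element, bound by ATF and CREB factors) and TGATGNAA (the core of the amino acid response element). They overlapped nowhere in the 2 windows shown. The Slc38a2 window held a GC box on the minus strand, starting 35 bases before the gene's outer start, and TATAA starting 8 bases before it. These are found in 32.7% and 22.8% of all 32851 windows of the same length. The Slc38a6 window held a cAMP response element starting 12 bases before the outer start, a motif in 1.55% of windows. The letters TGATGNAA, present in 3.45% of all windows, occurred in none of the 10 windows of the 8 members that the table holds, some of them at inner starts, and the intron of Slc38a2 lies outside these windows. GC content was 72% in the Slc38a2 window and 66.4% in the whole window of Slc38a6, against a median of 52.4% over all windows. Each match describes letters only.

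On a scale comparable between genes, CPM per kilobase of exon, the family spanned from near 0 to above 200. Slc38a2 had the highest level at 225 ± 2.59 in control (SD, n = 3), followed by Slc38a7 at 74.6 ± 1.83, Slc38a1 at 71.7 ± 0.34 and Slc38a10 at 31.2 ± 0.79 CPM per kilobase. Slc38a9 and Slc38a6 lay about an order of magnitude lower, at 2.98 ± 0.075 and 2.62 ± 0.073 CPM per kilobase. Over the 6 libraries the ranges of Slc38a9 (2.91 to 3.27) and Slc38a6 (2.54 to 3.06) overlapped, so that their order is not beyond the spread. Slc38a7 (73.1 to 79.8) and Slc38a1 (62.8 to 72.1) did not overlap but differed by only 1.09-fold in their means. The order of Slc38a5, Slc38a3, Slc38a11 and Slc38a4, all at or below 0.202 CPM per kilobase in every library, was within their spread.

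**Figure D1:**
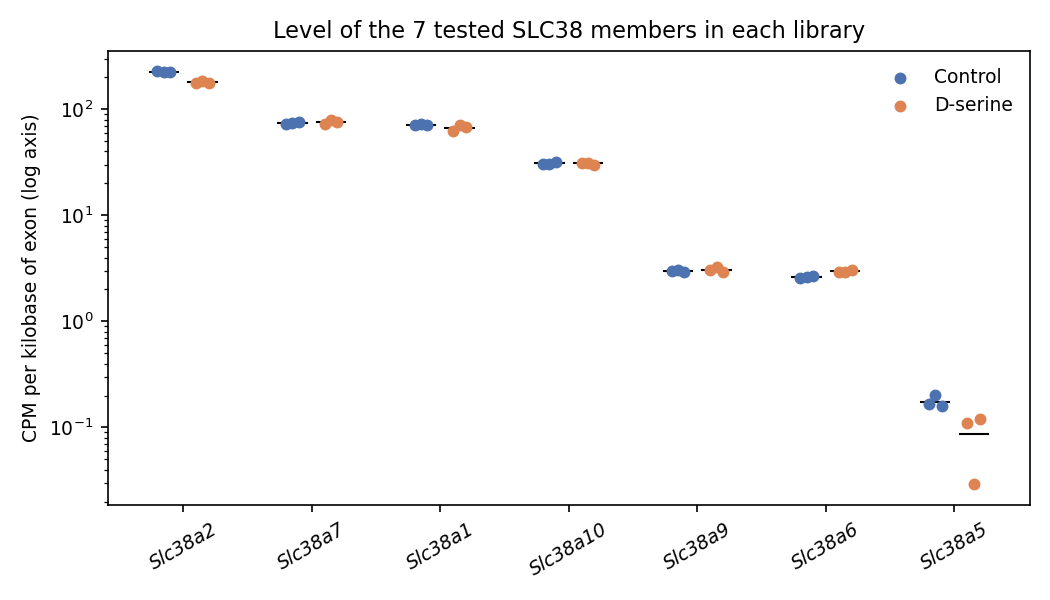
CPM per kilobase of exon, on a log axis, of the 7 tested members in the 3 control and 3 D-serine libraries (points) with the group mean (line). Slc38a2 lies highest in every library and its D-serine points, from 175.6 to 186.2, sit below its control points, from 222.6 to 227.7.

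Slc38a2 encodes SNAT2, the amino acid regulated carrier of system A, and lies on chromosome 15, 96517823 to 96530129, minus strand, in the deposited coordinates. Its level was 1054, 1045 and 1030 CPM in control replicates 1 to 3 and 813, 862 and 816 CPM in D-serine replicates 1 to 3. All 3 D-serine libraries were thus below all 3 controls, with means of 830.1 ± 27.3 and 1043 ± 12.0 CPM (SD, n = 3 each). The log2 fold change was -0.33 (SE 0.039, 95% interval -0.41 to -0.25, edgeR adjusted p = 0.00145), a decrease of 20.4%. The call held in all 16 alternatives, with log2 fold changes from -0.36 to -0.29 and adjusted p-values up to 0.0255, reached without control replicate 2. Of 2736 genes with a mean of at least 100 CPM, 339 passed the threshold downward and 69 upward, and 19 of the 339 had a larger estimated decrease than Slc38a2. Calls at this level thus leaned downward, unlike those over all tested genes. The shares over all tested genes given beside the lists below do not allow for this. Most list genes named there as passing downward have a mean above 100 CPM.

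Slc38a1 encodes SNAT1, the system A carrier of many neurons, and lies 44.5 kb from Slc38a2 on the same strand (chromosome 15, 96401849 to 96473344). Its level was 601, 605 and 600 CPM in control and 527, 595 and 566 CPM with D-serine. The groups did not overlap, as in 32.9% of all tested genes, but the D-serine libraries, with replicate 1 lowest, had an SD of 34.1 CPM against 2.81 CPM in control. The log2 fold change of -0.097 (SE 0.046, 95% interval -0.20 to 0.0023, edgeR adjusted p = 0.187) did not pass the threshold. D-serine replicate 1 also stood apart in its relation to gene length, with a slope of -0.0717 log2 CPM per doubling of exonic length against -0.0040 to 0.0356 in the other 5 libraries, and Slc38a1 has 8.39 kb of exon. With each library's length trend removed the log2 fold change of Slc38a1 was 0.020 (adjusted p = 0.70). It was -0.052 without D-serine replicate 1 (adjusted p = 0.323) and -0.14 without D-serine replicate 2 (adjusted p = 0.0686). Slc38a1 passed in 0 of the 16 alternatives. For Slc38a2, with 4.63 kb, removal of the length trend left -0.29. Whether gene length accounts for the estimate of Slc38a1 was not tested.

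The third gene of this chromosome 15 group, the system A carrier Slc38a4, had 0, 0 and 2 counts in control and no count in any D-serine library. A gap of 295.1 kb lies between Slc38a4 and Slc38a2 in the deposited coordinates. A count of 0 allows up to 3 counts where each count is an independent read, which is not settled for these data, and no difference was detectable at this depth. In the stretch from 500 kb before the group to 500 kb after it, 9 other genes were listed and 8 tested. None of the 8 passed the threshold in edgeR, against 9.74% of all tested genes, and 2 had an unadjusted p under 0.05, against 28.2%. At an adjusted p under 0.05, 1 and 0 passed in DESeq2 and limma-voom. The nearest neighbours with high counts, named for their position, were Scaf11 (log2 fold change -0.020, adjusted p = 0.825), a splicing-related factor, and Arid2 (-0.22, adjusted p = 0.0608), a chromatin remodelling subunit, both in edgeR. Arid2 passed in 4 of the 16 alternatives, with estimates from -0.28 to -0.093.

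The carriers of system N were near the limit of detection. Slc38a3 had 14, 2 and 4 counts in control and 2, 8 and 6 with D-serine, so that the groups overlapped. Slc38a5 (chromosome X, 7848507 to 7857302) had 10, 14 and 11 counts in control and 8, 2 and 9 with D-serine. Slc38a5 entered the test because its 3 control libraries reached the minimum of 0.266 CPM, which no D-serine library did, and the separation of its groups is therefore not read as a result. Its log2 fold change was -0.997 with a 95% interval from -2.18 to 0.19 (edgeR adjusted p = 0.255), that is from 0.220 to 1.14 times the control level. Glutamine exchange by system N is typical of astrocytes and liver. Of the listed astrocyte markers, Aqp4 had no count in any library, and Gfap, S100b and Aldh1l1 had 60, 23 and 9 counts in all 6. A relation of these to the level of the system N carriers was not tested.

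The lysosomal members did not pass the threshold. Slc38a7 (SNAT7, chromosome 8, 98359823 to 98377391) measured 240.0, 243 and 252 CPM in control and 239.8, 262 and 249 CPM with D-serine. The groups overlapped, and the log2 fold change was 0.031 (SE 0.045, 95% interval -0.066 to 0.13, edgeR adjusted p = 0.690). Slc38a9 (chromosome 13, 113450974 to 113528960) measured 26.6, 27.2 and 25.9 CPM in control and 27.1, 29.1 and 26.2 CPM with D-serine. Its groups overlapped as well, with a log2 fold change of 0.046 (SE 0.065, 95% interval -0.094 to 0.19, adjusted p = 0.679). As folds, these intervals run from 0.955 to 1.09 in Slc38a7 and from 0.937 to 1.14 in Slc38a9. With 8.91 kb of exon Slc38a9 is the longest member, and with the length trend removed its log2 fold change was 0.17 (adjusted p = 0.0917).

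Slc38a10 and Slc38a6, carriers with less settled roles, did not pass either. Slc38a10 (chromosome 11, 119965265 to 120012665), which is found on internal membranes, measured 167, 166 and 174 CPM in control and 169, 170 and 163 CPM with D-serine, with a log2 fold change of -0.013 (SE 0.042, 95% interval -0.10 to 0.079, edgeR adjusted p = 0.878). The groups overlapped, and its sign changed in 6 of the 16 alternatives. Slc38a6 (chromosome 12, 74387835 to 74455032), described at synapses, measured 7.53, 7.82 and 7.95 CPM in control and 8.56, 8.65 and 9.06 CPM with D-serine. Here every D-serine library was above every control, and the log2 fold change was 0.17 (SE 0.096, 95% interval -0.034 to 0.38, adjusted p = 0.258). Its libraries held 243 to 365 counts each, so the 12.7% rise of the estimate was not distinguishable from 0 at this depth. Slc38a11, on chromosome 2, had no count in control and 2, 0 and 6 counts with D-serine.

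**Figure D2:**
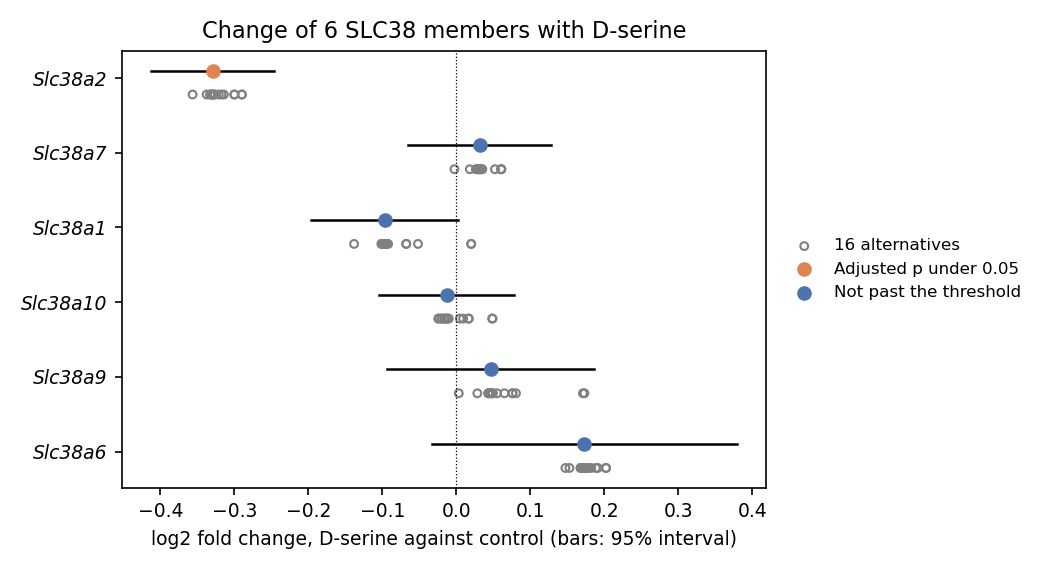
Log2 fold change of the 6 members with more than 1000 counts in all, D-serine against control, with the 95% interval (bar) and the estimates under the 16 alternatives (open circles). The interval of Slc38a2 runs from -0.41 to -0.25, and the intervals of the other 5 include 0.

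Summed over the 10 members, the family's level was 409.0, 408.6 and 408.6 CPM per kilobase in control and 348.7, 374.6 and 356.1 CPM per kilobase with D-serine. All 3 treated libraries were below the controls, by 12.0% in the means (exact two-sided permutation p = 0.1, and a comparison of this size can reach no lower value). Without Slc38a2 the sum was 183 ± 2.42 in control and 180.4 ± 7.66 CPM per kilobase with D-serine (SD, n = 3 each; exact permutation p = 0.6), and the groups overlapped. Slc38a2 made up 55.7%, 55.3% and 54.5% of the summed level in control and 50.4%, 49.7% and 49.5% with D-serine, again without overlap (exact permutation p = 0.1).

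Ratios of counts within a library do not depend on how libraries are scaled. The ratio of Slc38a2 to Slc38a1 was 1.76, 1.73 and 1.72 in control and 1.54, 1.45 and 1.44 with D-serine. The 3 treated values lay below the 3 controls, and the mean log2 ratio differed by -0.23. Ratios of Slc38a2 to Slc38a6, Slc38a7, Slc38a9 and Slc38a10 were lower as well, by -0.50, -0.36, -0.38 and -0.32 on the log2 scale. None of the 5 ratios overlapped between the groups, each with an exact two-sided permutation p of 0.1 (0.1 after Benjamini-Hochberg adjustment over the 5). All 5 share the Slc38a2 counts and are not independent of each other.

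**Figure D3:**
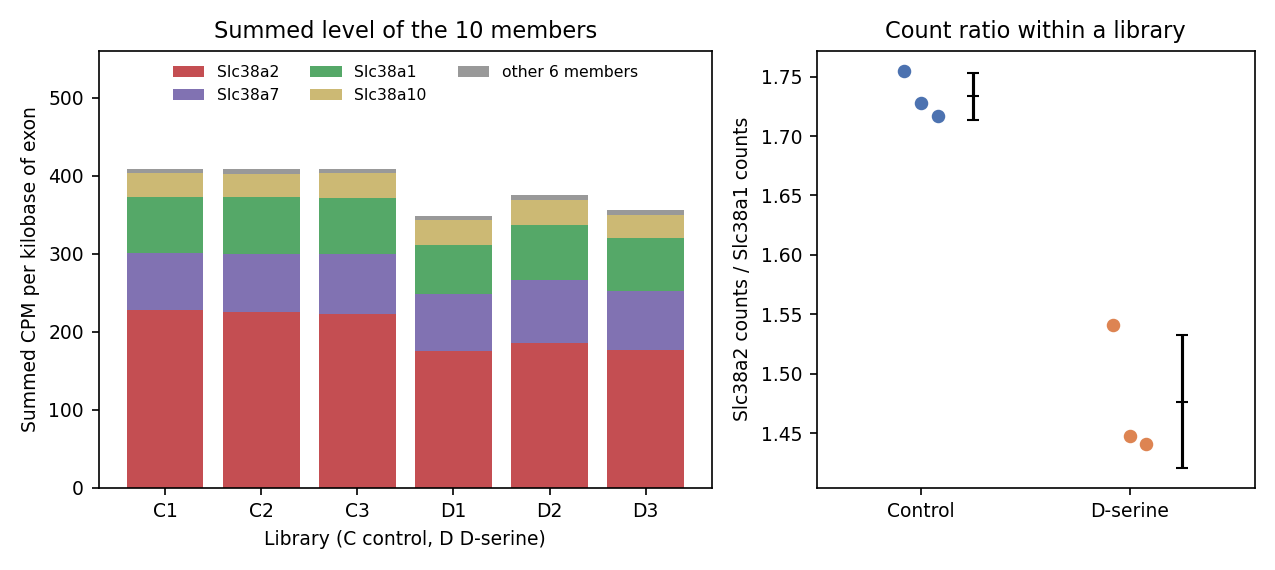
Left, CPM per kilobase of exon stacked by member in control (C1 to C3) and D-serine (D1 to D3) libraries; right, the count ratio of Slc38a2 to Slc38a1 in each library with its mean and SD (axis not from 0). The summed level was 408.6 to 409.0 in control and 348.7 to 374.6 with D-serine, and the Slc38a2 segment is shorter in each treated bar.

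Genes like Slc38a2 in their pattern were sought among 9799 tested genes with a mean of at least 5 CPM. Clone names, Gm numbers and date-like or duplicated symbols had been left out of these. The most alike over the 6 libraries, by Pearson correlation of log2 CPM, were Nmnat2, Kif1c, Pcsk7, Upf1 and Isg20l2, with r from 0.995 to 0.997. These points share the separation of the groups. A difference between the groups follows from the choice of these genes, so that their values are a description with no test. Upf1, the helicase of nonsense-mediated decay, had a mean of 317 ± 3.74 CPM (SD, n = 3) in the controls and 258 ± 8.0 CPM (n = 3) in the treated cultures, a log2 fold change of -0.30. The log2 fold changes were -0.16 for Nmnat2, an axonal NAD synthesis enzyme, -0.25 for Kif1c, a kinesin motor, -0.21 for Pcsk7, a proprotein convertase, and -0.11 for Isg20l2. Among the other members with more than 1000 counts, the correlation with Slc38a2 was 0.784 for Slc38a1, 0.243 for Slc38a10, -0.238 for Slc38a7, -0.271 for Slc38a9 and -0.942 for Slc38a6.

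Among 17 other carriers of neutral amino acids, 13 were tested and 3 passed, all downward, which is 23.1% against 9.74% of all tested genes. The median log2 fold change of the 13 was -0.10. At an unadjusted p under 0.05 in edgeR there were 6 of the 13, against 28.2% of all tested genes. Slc1a4 (ASCT1), an exchanger of alanine, serine and cysteine, measured 268, 262 and 268 CPM in control and 214, 221 and 217 CPM with D-serine, without overlap (log2 fold change -0.29, edgeR adjusted p = 0.0034). Slc3a2, the heavy chain that partners the large neutral amino acid carriers, had a log2 fold change of -0.25 (adjusted p = 0.0060). Slc1a5 (ASCT2), the glutamine exchanger, had -0.15 (adjusted p = 0.0363). Without control replicate 2, the values for Slc3a2 and Slc1a5 were 0.0501 and 0.123. Slc1a5 also missed the threshold without control replicates 1 and 3 or D-serine replicates 2 and 3 (0.0902, 0.135, 0.0673 and 0.0990) and under upper quartile scaling or library totals (0.0845 and 0.0723), whereas Slc1a4 passed in all 16 alternatives. Slc7a10, a carrier of D-serine and small neutral amino acids in brain, had no count.

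In the list of glutamine and alanine enzymes, which also holds enzymes acting on glutamate, 2 of 12 passed the threshold, both lower. This is 16.7% against 9.74% of all tested genes (4.9% lower), and the median log2 fold change was -0.072. At an unadjusted p under 0.05 in edgeR there were 4 of the 12, against 28.2% of all tested genes. The 2 that passed were Gpt2, a mitochondrial alanine transaminase (-0.18, edgeR adjusted p = 0.0262), and Psat1, a transaminase of serine synthesis (-0.16, adjusted p = 0.0278). Both calls ended without control replicate 1, 2 or 3 or D-serine replicate 3, where adjusted p-values ran up to 0.103 for Gpt2 and 0.127 for Psat1, and that of Psat1 also without D-serine replicate 2 (0.0507). Upper quartile scaling ended both (0.0501 for Gpt2 and 0.0675 for Psat1), and library totals ended that of Psat1 (0.0543).

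Of the 19 genes of lysosomal amino acid sensing, the machinery to which Slc38a9 belongs, 1 passed, which is 5.26% against 9.74% of all tested genes, and the median log2 fold change was -0.0064. Nprl3, a subunit of the GATOR1 complex that restrains mTORC1, rose from 17.4, 17.2 and 17.9 CPM to 21.0, 21.7 and 21.9 CPM (log2 fold change 0.30, edgeR adjusted p = 0.0190). Its call ended without control replicate 1 or 2 or D-serine replicate 3, with adjusted p-values of 0.0715, 0.0865 and 0.0712. Rraga, a Rag GTPase (0.20, adjusted p = 0.0551), and the kinase Mtor (-0.20, adjusted p = 0.0607) did not pass, but did in 6 and 3 of the 16 alternatives. They are named after their values were seen.

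In the list on the amino acid response, the programme that acts on Slc38a2 when amino acids are short, 4 of 15 tested genes passed, all lower, which is 26.7% against 9.74% of all tested genes (4.9% lower). The median log2 fold change over the 15 was -0.093, with 9 estimates lower and 6 higher. The cystine carrier Slc7a11 (-0.32, edgeR adjusted p = 0.0162), the arginine and lysine carrier Slc7a1 (-0.30, adjusted p = 0.0127), the transcription factor Cebpb (-0.26, adjusted p = 0.0190) and the ER protein Herpud1 (-0.19, adjusted p = 0.0183) were the 4. Without D-serine replicate 1, Slc7a11 and Slc7a1 shrank to -0.23 and -0.22, and with the length trend removed to -0.20 and -0.21, still past the threshold. Cebpb and Herpud1 instead grew, to -0.29 and -0.22 without that library and to -0.32 and -0.23 with the trend removed. Atf4 itself measured 1023, 1044 and 1056 CPM in control and 1272, 1104 and 1129 CPM with D-serine, above every control, with a log2 fold change of 0.17 that did not pass (adjusted p = 0.0527) but passed upward in 8 of the 16 alternatives. All 4 calls ended without control replicate 1 or 2, with adjusted p-values up to 0.0667 and 0.0898, and those of Cebpb and Herpud1 also without control replicate 3 (0.0740 and 0.0804) or D-serine replicate 3 (0.0519 and 0.0759). Atf3, Ddit3 and Ddit4 also had higher estimates (0.17, 0.11 and 0.11), which did not pass (edgeR adjusted p = 0.0849, 0.128 and 0.149). These are named after their values were seen. At an unadjusted p under 0.05 in edgeR there were 11 of the 15, in both directions, against 28.2% of all tested genes. Earlier results of these data were known when this list was made, and the direction of its calls is no independent evidence.

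**Figure D4:**
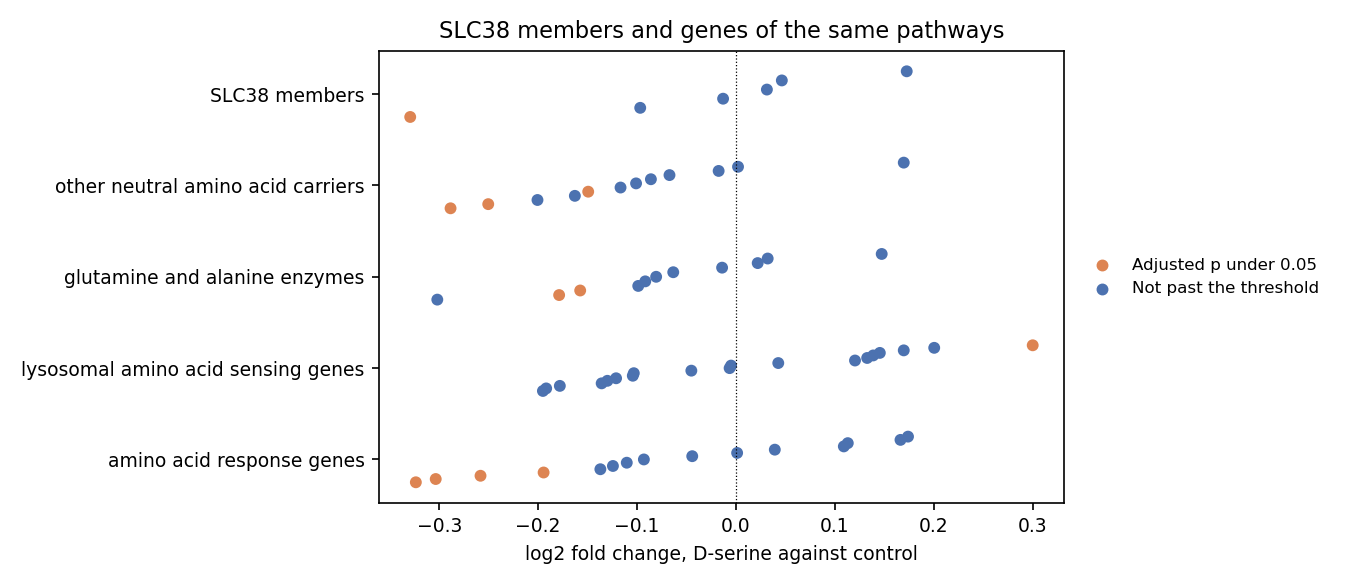
Log2 fold change, D-serine against control, of the tested SLC38 members and of the tested genes in 4 lists (points, orange where the adjusted p was under 0.05); Slc38a5, Slc43a1 and Gfpt2, with few counts, are not drawn. Slc38a2 at -0.33 is the 1 orange point among the members, and in the lists 9 of the 10 orange points lie left of 0.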

How the data were processed

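Messenger RNA of 6 Neuro2a cultures was sequenced as paired ends from stranded TruSeq libraries, per the labels' protocols. The authors deposited raw counts per gene in 1 table with the exonic length of each gene, per the file headers. Columns named for vehicle were assigned to the control samples of the same number. HISAT2, featureCounts, GRCm38 and mm10 are among the names in the submitters' processing notes. The strand setting is not given in the sources used here. Of counts of 1 or 2, 74.6% were 2, so both mates of a pair may each have been counted, so low counts are not all independent reads. No member shared exonic bases with another gene of the table. The starts of 4.95% of 23071 genes lay within 1000 bases of RefSeq on GRCm38, so that gene coordinates are given as deposited, from a build that is not settled here, and only promoters are on GRCm38.p6. RefSeq promoters were matched by symbol for 8 of the 10 members.

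Counts were tested in edgeR 4.0.16 (R 4.3.3): filterByExpr with the groups (at least 0.266 CPM in 3 libraries), TMM scaling, quasi-likelihood F test, Benjamini-Hochberg adjustment over all 13366 genes, two-sided, threshold 0.05. The SE is the log2 fold change divided by the square root of F. The fit was also run on counts simulated from its own means and dispersions. These had no length trend, so that run does not bear on the deviations between these libraries. The 16 alternatives were DESeq2 1.42.0, limma-voom (limma 3.58.1), 3 other scalings, no filter, a mean of at least 50 counts, replicate block, removal of each library's trend on length (natural spline, 5 degrees of freedom), that removal with the block, and omission of each library. Members, lists and tests were chosen with earlier results of these data known. By rule, list genes past the threshold are named, the 6 with the smallest p at most. Lists are described by counts and medians. Of the enzymes of glutamine and alanine, 1 gene is not reported here and was left out of the list's counts and median. Within groups, chi-square divided by its degrees of freedom was 3.88 to 17.7, more than sampling noise gives, and each library was counted as a replicate.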

Additional observations from a re-analysis of the deposited data

How the results depend on the processing

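The fall of Slc38a2 and the count of 1 member past the threshold held in all 16 alternatives. The count of all genes past the threshold was 2059 with the length trend removed, 298 with the replicate block and 68 to 1699 when 1 library was left out, lowest without control replicate 2. Upper quartile scaling and library totals put 68.9% and 69.6% of called genes on the higher side, against 49.7%. Neutral amino acid carriers past it numbered 5 with the length trend removed, with or without the block, and 1 to 6 with a library left out. Glutamine and alanine enzymes numbered 0 under upper quartile scaling, 1 under library totals, 4 with the length trend removed, with or without the block, 0 with the block alone and 0 to 3 with a library left out. Lysosomal sensing genes numbered 6 in DESeq2, 5 with no filter, 0 with the block and 0 to 5 with a library left out, and 2 under upper quartile scaling, library totals, a mean of 50 counts and the length trend removed, with or without the block. Amino acid response genes numbered 2 with the block, 8 with the length trend removed, with or without the block, and 0 to 7 with a library left out. The cause of these shifts was not tested.

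Signs turned only in members that did not pass, among the 7 tested. Slc38a1 was at 0.020 with the length trend removed, also with the block. Slc38a7 was at -0.0026 without D-serine replicate 2, in a range of -0.0026 to 0.061 with a library left out. Slc38a10 was at 0.017 and 0.016 under upper quartile scaling and library totals, 0.049 and 0.048 with the length trend removed without and with the block, and 0.0091 and 0.0046 without control replicate 3 and D-serine replicate 3, in a range of -0.025 to 0.0091. The summed level was lower by -0.21 to -0.16 (log2) with a library left out, the share of Slc38a2 by -5.62 to -5.02 percentage points and its log2 ratio to Slc38a1 by -0.26 to -0.21. Leaving out libraries for the share and the ratio was chosen after seeing the data.

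Same-numbered libraries share a number, and no pairing of them is known from the labels. The correlations of their deviations from the group means were -0.0687, 0.0197 and -0.0187 for numbers 1 to 3. With 3 libraries per group these cannot show whether a pairing exists. The block was run as an alternative and does not rest on a stated pairing. It left Slc38a2 at -0.33 (edgeR adjusted p = 0.0169). With the block, adjusted p-values over the threshold were 0.09998 for Slc1a5, 0.0737 for Gpt2, 0.0878 for Psat1, 0.0541 for Nprl3, 0.0519 for Cebpb and 0.0671 for Herpud1. Members with under 20 counts a library were limited by depth.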
